A study of Mus musculus with 16 samples.

Results

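The genes described here are 10 markers of cardiac fibroblasts, taken by symbol from a table of 57010 genes measured in libraries of isolated heart muscle cells. Of these, 5 are used as markers of fibroblast identity (Pdgfra, Tcf21, Mfap5, Pi16 and Dpt) and 5 as markers of fibroblast activation (Cilp, Svep1, Meox1, Fap and Cthrc1). All 10 were in the table, and all 10 passed the filter on low counts that left 14066 genes for testing. Cthrc1 passed it only through its Vector TAC libraries, so it was bound to differ from the other groups, and it is left out of the counts and medians that open the results. The 16 libraries form 4 groups of 4, all from cardiomyocytes of adult wild-type C57BL/6 mice injected with an adeno-associated virus of serotype 9 (AAV9). PRODH TAC mice received AAV9-PRODH, meant to raise proline dehydrogenase (a mitochondrial enzyme that oxidises proline) in the heart, and then transverse aortic constriction (TAC), an operation that narrows the aorta and loads the left ventricle. Vector TAC mice received AAV9-Vector and TAC. PRODH sham mice received AAV9-PRODH and a sham operation, and Vector sham mice received AAV9-Vector and a sham operation. Surgery came 3 weeks after injection and hearts were taken 4 weeks after surgery. The mice's age in weeks and sex, and the promoter that drives the viral gene, were not given in the sources used here. Libraries of a group are numbered in the labels, with no statement that each is a separate mouse, so the p-values below reflect spread among libraries, which may be technical.

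Fibroblasts are the main matrix-producing cells of the heart. At rest they keep up the collagen network and carry the receptor PDGFRα and the transcription factor TCF21. Under pressure overload they multiply and switch on secreted matrix proteins, proteases and regulators, a state called activation that can lead to fibrosis. In the heart these 10 genes are known mainly from fibroblasts rather than from cardiomyocytes.

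Total estimated counts ran from 15987580 to 22680212 per library. Mitochondrial genes and their nuclear copies took 54.7% to 55.7% of the counts in PRODH TAC, 53.2% to 55.9% in Vector TAC, with 59.2% to 63.0% in PRODH sham and 58.5% to 62.9% in Vector sham libraries. Outside them, 6259219 to 10218410 counts per library remained. The 10 markers together held 2104 to 2632 counts per PRODH TAC library, 8239 to 10391 per Vector TAC library, 756 to 833 per PRODH sham library and 567 to 969 per Vector sham library. Levels are given as CPM, the counts of a gene per 1000000 counts of a library after TMM scaling. Within Vector TAC the chi-square per gene between libraries was 3.06 for the third against the fourth and 30.7 for the second against the third, the widest gap within any group. Prodh itself averaged 13.6 ± 1.05 CPM in PRODH TAC, 7.28 ± 1.18 in Vector TAC, with 13.8 ± 0.955 in PRODH sham and 10.95 ± 0.454 in Vector sham libraries (SD, n = 4 each). It was higher in PRODH TAC than in Vector TAC (log2 fold change 0.90, edgeR adjusted p = 2.19e-08), while the difference between PRODH sham and Vector sham missed the threshold (0.33, edgeR adjusted p = 0.0517). Prodh was also lower in Vector TAC than in Vector sham (-0.58, edgeR adjusted p = 2.58e-05). PRODH TAC against PRODH sham missed the threshold (-0.02, edgeR adjusted p = 0.904). Whether transcripts of the viral gene are counted under mouse Prodh was not tested, so these values do not measure how well the virus worked. The labelled cell type was present: 10 cardiomyocyte genes summed to 26982 to 29555 CPM in PRODH TAC, 23747 to 25252 in Vector TAC, with 34533 to 37731 in PRODH sham and 34814 to 38947 in Vector sham libraries. In the same libraries the 5 identity markers summed to 55.0 to 70.1 CPM in PRODH TAC, 228 to 232 in Vector TAC, with 36.8 to 40.6 in PRODH sham and 29.0 to 41.5 in Vector sham.

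Promoter sequences were found in RefSeq (mouse build GRCm38.p6) for 6 of the 10 genes, each 300 bases long, with 250 before and 50 after the annotated start. The following 4 are shown because they belong to a pair of genes with very large differences between groups (Cilp and Svep1) and a pair with smaller ones (Pdgfra and Dpt). They lie at chr9:65264930-65265229 (+ strand, Cilp), chr4:58206547-58206846 (- strand, Svep1), chr5:75152001-75152300 (+ strand, Pdgfra) and chr1:164796413-164796712 (+ strand, Dpt), and are written 5′ to 3′ along the gene. Capitals mark matches, on either strand, to the AP-1 motif TGANTCA, the TEAD motif GGAATG, the SMAD motif CAGAC and the TATA box TATAAA.
Cilp: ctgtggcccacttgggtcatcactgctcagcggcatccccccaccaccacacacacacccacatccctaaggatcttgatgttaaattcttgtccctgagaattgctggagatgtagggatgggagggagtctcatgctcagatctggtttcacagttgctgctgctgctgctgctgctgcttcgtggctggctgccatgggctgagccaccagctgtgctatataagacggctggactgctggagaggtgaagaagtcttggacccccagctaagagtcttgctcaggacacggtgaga
Svep1: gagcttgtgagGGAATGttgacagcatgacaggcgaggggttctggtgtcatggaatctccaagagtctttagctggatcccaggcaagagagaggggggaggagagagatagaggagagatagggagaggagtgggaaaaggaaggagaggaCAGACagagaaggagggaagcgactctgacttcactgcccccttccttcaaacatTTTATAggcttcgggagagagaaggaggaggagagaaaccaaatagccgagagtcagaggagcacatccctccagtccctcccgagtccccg
Pdgfra: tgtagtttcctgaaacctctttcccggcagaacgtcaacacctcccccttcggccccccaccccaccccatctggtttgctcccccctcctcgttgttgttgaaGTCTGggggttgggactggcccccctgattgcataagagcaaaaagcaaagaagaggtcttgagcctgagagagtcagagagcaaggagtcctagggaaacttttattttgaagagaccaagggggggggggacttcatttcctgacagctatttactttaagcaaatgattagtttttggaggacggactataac
Dpt: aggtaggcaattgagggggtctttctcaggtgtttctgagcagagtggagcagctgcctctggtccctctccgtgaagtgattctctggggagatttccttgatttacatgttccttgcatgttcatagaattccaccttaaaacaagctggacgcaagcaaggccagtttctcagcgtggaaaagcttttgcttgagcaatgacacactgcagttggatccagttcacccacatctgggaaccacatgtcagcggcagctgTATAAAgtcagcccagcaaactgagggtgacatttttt

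The Cilp window held no exact match to the 4 marked motifs. Near matches, such as the stretch tatataag in that window, were not searched for. The Svep1 window held TEAD, SMAD and reverse-strand TATA matches, starting at bases 12, 154 and 209. In the Pdgfra window a reverse-strand SMAD match began at base 105. In the Dpt window a TATA match began at base 263, which is 12 bases past the annotated start. Across the 6 windows, AP-1 matched in 0, TEAD in 1, SMAD in 4 and TATA in 2, against 7.81%, 14.7%, 49.6% and 13.6% of 32851 mouse promoters of the same length. The unmarked homeobox motif TAATTA matched in 0 of the 6 and in 5.29% of all promoters. The E-box CANNTG, the kind of site bound by the family of TCF21, matched in 4 of the 6 and in 72.3% of all; it may overlap the other motifs. Matches describe these letters only.

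Without Cthrc1, 9 of 9 markers were higher in Vector TAC than in Vector sham libraries, with a median log2 fold change of 2.23 beside 0.02 over all genes tested. In that comparison 30.3% of all 14066 genes were called higher and 26.2% lower (edgeR quasi-likelihood test, adjusted p under 0.05). The same 9 were lower in PRODH TAC than in Vector TAC libraries, with a median of -1.53 beside -0.04 over all genes, where 24.6% of genes were called lower and 18.5% higher. These 2 comparisons share the Vector TAC libraries. In PRODH TAC against PRODH sham, 7 of the 9 were higher (median 0.98), beside 17.2% of all genes called higher and 17.8% called lower. In PRODH sham against Vector sham 1 was lower, Meox1, beside 2.20% of all genes called lower and 2.81% called higher. The change with TAC was smaller under PRODH than under vector for the 9 (the interaction of virus and surgery, median -1.76), beside 15.8% of genes called with a negative and 10.9% with a positive interaction. In bulk libraries, fewer cells of a type and less RNA per cell cannot be told apart. Nor can a change in the heart be told from a change in how many such cells stayed with the isolated cardiomyocytes.

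**Figure D1:**
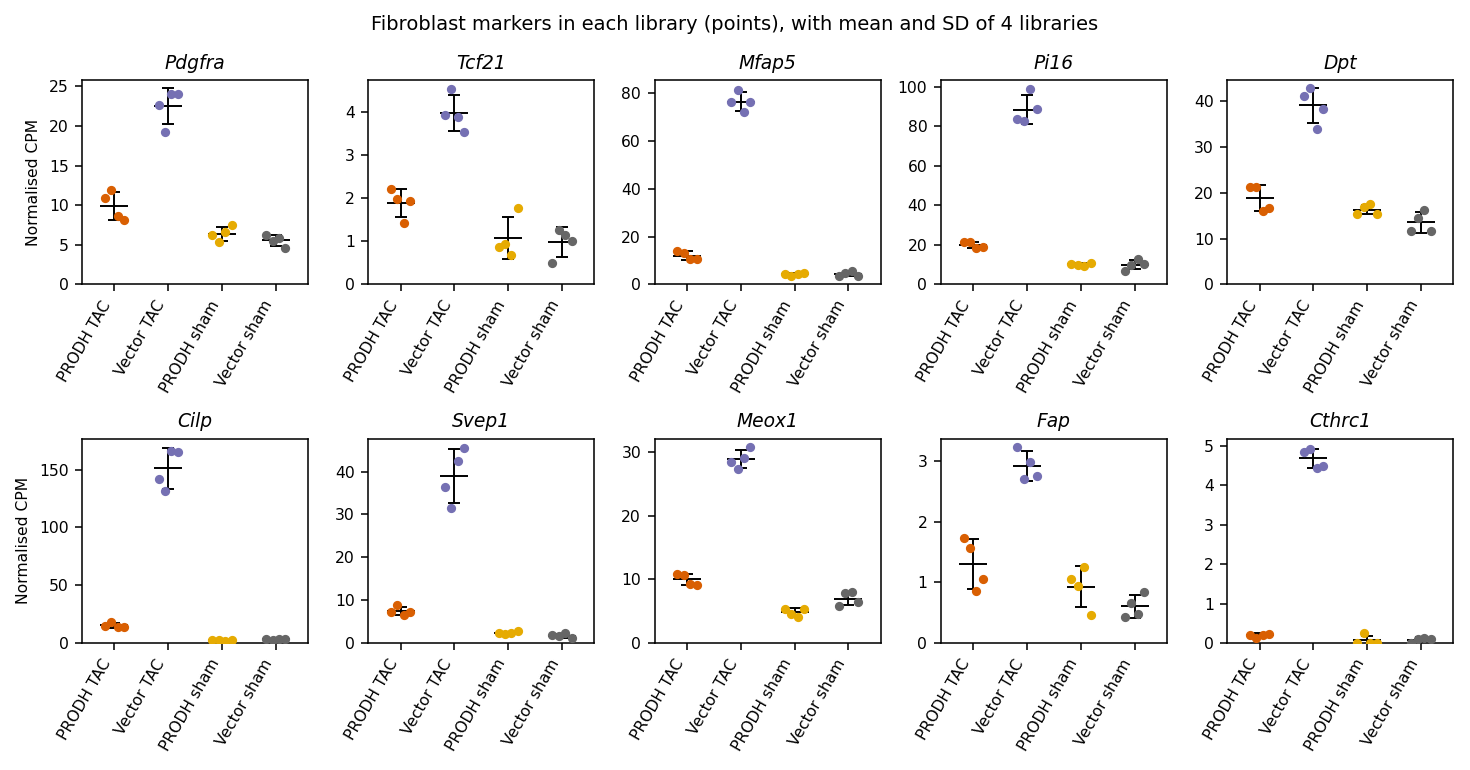
CPM of each of the 10 markers (linear axes from 0) in each library of the 4 groups, with the mean and SD of 4 libraries. In every panel the 4 Vector TAC libraries lie above the other 12, and the PRODH TAC libraries lie between them and the sham libraries or overlap the sham libraries. Cthrc1 passed the filter on low counts only through Vector TAC. The share of all genes with such a separation was not counted.

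The cell-surface members were the receptor and the protease. Pdgfra encodes PDGFRα, a receptor tyrosine kinase for platelet-derived growth factors that marks mesenchymal cells. It was at 10.9, 11.9, 8.69 and 8.19 CPM in PRODH TAC libraries and 22.7, 19.3, 24.0 and 24.1 CPM in Vector TAC libraries. It was at 6.19, 5.36, 6.59 and 7.49 CPM in PRODH sham and 6.19, 5.53, 5.92 and 4.66 CPM in Vector sham libraries. The TAC groups overlapped neither each other nor the sham groups, and the sham groups overlapped each other. Pdgfra was higher in Vector TAC than in Vector sham by 2.02 ± 0.12 (log2 fold change ± SE, edgeR adjusted p = 1.60e-14) and higher in PRODH TAC than in PRODH sham by 0.63 ± 0.13 (2.53e-04). Set against Vector TAC, PRODH TAC libraries gave a log2 fold change of -1.18 ± 0.11 (edgeR adjusted p = 3.97e-10). Between the sham groups it was 0.21, with a 95% interval of -0.07 to 0.48.

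Fap encodes fibroblast activation protein, a membrane serine protease that is low in most resting tissues. It was at 1.73, 1.57, 0.853 and 1.06 CPM in PRODH TAC libraries and 3.23, 2.70, 2.99 and 2.76 CPM in Vector TAC libraries. It was at 1.05, 0.934, 1.26 and 0.460 CPM in PRODH sham and 0.427, 0.660, 0.483 and 0.846 CPM in Vector sham libraries. Only the Vector TAC group stood clear of every other group. The log2 fold change was 2.23 ± 0.27 in Vector TAC against Vector sham (edgeR adjusted p = 3.51e-08) and -1.16 ± 0.23 in PRODH TAC against Vector TAC (1.33e-04). Fap missed the threshold in PRODH TAC against PRODH sham, at 0.47 with a 95% interval of -0.06 to 1.01 (edgeR adjusted p = 0.182).

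The transcription factors were Tcf21 and Meox1. Tcf21 encodes a basic helix-loop-helix factor needed for the formation of cardiac fibroblasts in the mouse embryo. It was at 2.21, 1.98, 1.42 and 1.93 CPM in PRODH TAC libraries and 3.91, 4.52, 3.88 and 3.52 CPM in Vector TAC libraries. It was at 0.876, 0.934, 0.688 and 1.77 CPM in PRODH sham and 0.498, 1.27, 1.15 and 1.01 CPM in Vector sham libraries. The fourth PRODH sham library lay within the range of the PRODH TAC libraries, while Vector TAC stood clear of all groups. Tcf21 was higher by 1.97 ± 0.23 in Vector TAC against Vector sham (edgeR adjusted p = 2.19e-08) and by 0.84 ± 0.25 in PRODH TAC against PRODH sham (0.00919). Its log2 fold change in PRODH TAC against Vector TAC was -1.07 ± 0.20 (edgeR adjusted p = 8.07e-05).

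Meox1 encodes a homeobox factor that is switched on in stressed cardiac fibroblasts of the mouse. Its levels were 10.8, 10.7, 9.30 and 9.05 CPM in PRODH TAC libraries and 28.4, 27.3, 29.0 and 30.7 CPM in Vector TAC libraries. They were 5.37, 4.55, 4.01 and 5.39 CPM in PRODH sham and 5.76, 7.76, 7.97 and 6.35 CPM in Vector sham libraries. No pair of groups overlapped, and the sham groups differed too. The log2 fold change was 2.04 ± 0.10 in Vector TAC against Vector sham (edgeR adjusted p = 1.94e-16), 1.05 ± 0.12 in PRODH TAC against PRODH sham (4.55e-08) and -1.53 ± 0.09 in PRODH TAC against Vector TAC (5.69e-14). In PRODH sham against Vector sham Meox1 was lower, with a log2 fold change of -0.54 ± 0.12 (edgeR adjusted p = 0.00652). Without the third PRODH sham library that value was -0.46 and missed the threshold (edgeR adjusted p = 0.0548).

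The structural matrix members spanned the smallest and nearly the largest differences. Dpt encodes dermatopontin, a small matrix protein that binds decorin and helps collagen fibrils to assemble. It was at 21.4, 21.2, 16.05 and 16.7 CPM in PRODH TAC libraries and 41.3, 42.9, 34.0 and 38.2 CPM in Vector TAC libraries. It was at 15.5, 16.8, 17.5 and 15.4 CPM in PRODH sham and 11.7, 14.5, 16.3 and 11.7 CPM in Vector sham libraries. The PRODH TAC and PRODH sham libraries overlapped, and Vector TAC stood clear. Dpt had the smallest log2 fold change of the 10 in Vector TAC against Vector sham, 1.53 ± 0.11 (edgeR adjusted p = 2.05e-12), and in PRODH TAC it was at 48.2% of its Vector TAC mean (log2 fold change -1.05 ± 0.10, edgeR adjusted p = 2.57e-09). Between PRODH TAC and PRODH sham the difference was 0.21, with a 95% interval of -0.01 to 0.42 (edgeR adjusted p = 0.147).

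Mfap5 encodes a glycoprotein of the fibrillin microfibrils, fine fibres that carry elastin and hold growth factors. It was at 14.2, 12.9, 10.6 and 10.6 CPM in PRODH TAC libraries and 76.1, 81.4, 71.8 and 76.3 CPM in Vector TAC libraries. It was at 4.38, 3.61, 4.47 and 4.79 CPM in PRODH sham and 3.63, 4.92, 5.43 and 3.49 CPM in Vector sham libraries. Each TAC group stood clear of both sham groups and of the other TAC group. Mfap5 was 17.4-fold higher in Vector TAC than in Vector sham (log2 fold change 4.12 ± 0.12, edgeR adjusted p = 1.81e-22), the largest difference of the 5 identity markers. It was higher by 1.48 ± 0.13 in PRODH TAC against PRODH sham (edgeR adjusted p = 2.46e-10), and lower in PRODH TAC than in Vector TAC, at -2.66 ± 0.10 (3.27e-19).

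Svep1 encodes a very large matrix protein that binds the integrin α9β1. It was at 7.32, 8.88, 6.58 and 7.28 CPM in PRODH TAC libraries and 36.4, 31.4, 42.5 and 45.5 CPM in Vector TAC libraries. It was at 2.28, 2.18, 2.41 and 2.69 CPM in PRODH sham and 1.85, 1.57, 2.23 and 1.06 CPM in Vector sham libraries. The TAC groups were separate from each other and from the sham groups, which overlapped narrowly. Svep1 was 23.5-fold higher in Vector TAC than in Vector sham (log2 fold change 4.55 ± 0.15, edgeR adjusted p = 6.40e-20). It was higher by 1.65 ± 0.16 in PRODH TAC against PRODH sham (edgeR adjusted p = 8.23e-09), and in PRODH TAC against Vector TAC it was -2.37 ± 0.12 (8.37e-16).

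Cilp encodes cartilage intermediate layer protein, a secreted matrix protein that binds TGF-β. It was at 14.96, 18.2, 13.5 and 13.8 CPM in PRODH TAC libraries and 142, 131, 166 and 165 CPM in Vector TAC libraries. It was at 2.80, 2.37, 1.49 and 2.496 CPM in PRODH sham and 3.27, 2.84, 3.20 and 3.02 CPM in Vector sham libraries. No pair of groups overlapped. Cilp was 49.1-fold higher in Vector TAC than in Vector sham (log2 fold change 5.62 ± 0.13, edgeR adjusted p = 7.49e-24) and higher by 2.72 ± 0.14 in PRODH TAC against PRODH sham (3.64e-14). In PRODH TAC against Vector TAC it was -3.32 ± 0.10 (edgeR adjusted p = 1.63e-20). Between the sham groups the difference of -0.43 missed the threshold after adjustment (95% interval -0.79 to -0.06, edgeR adjusted p = 0.231).

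The other secreted members were Pi16 and Cthrc1. Pi16 encodes peptidase inhibitor 16, a protein of the cysteine-rich secretory family that marks fibroblasts of the adventitia. It was at 21.5, 21.3, 18.2 and 18.9 CPM in PRODH TAC libraries and 83.7, 82.6, 98.7 and 88.7 CPM in Vector TAC libraries. It was at 10.2, 10.1, 9.11 and 11.1 CPM in PRODH sham and 7.05, 9.996, 12.7 and 10.4 CPM in Vector sham libraries. Each TAC group stood clear of the shams, and the sham groups overlapped fully. Pi16 was 8.75-fold higher in Vector TAC than in Vector sham (log2 fold change 3.13 ± 0.11, edgeR adjusted p = 1.48e-19) and higher by 0.98 ± 0.11 in PRODH TAC against PRODH sham (1.15e-07). Against Vector TAC, PRODH TAC libraries were lower, at -2.15 ± 0.10 (edgeR adjusted p = 2.18e-16).

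Cthrc1 encodes a secreted protein with a collagen triple helix repeat that marks strongly matrix-producing fibroblasts after injury. Counts of this gene were few outside Vector TAC: 5, 3, 5 and 6 in PRODH TAC libraries, against 114, 95, 85 and 83 in Vector TAC libraries. There were 0, 4, 0 and 0 counts in PRODH sham and 0, 2, 2 and 2 in Vector sham libraries. A count of 0 allows up to 3 counts, or 0.172 to 0.213 CPM in these 4 libraries. In CPM, PRODH TAC libraries (0.124 to 0.236) overlapped PRODH sham (0 to 0.249). They were not separate from Vector sham (0 to 0.121) either, given the 0.213 CPM that the count of 0 in its first library allows. Vector TAC stood clear of the other 3 groups at 4.46 to 4.94 CPM. Summed over libraries, the 377 counts in Vector TAC against 6 in Vector sham gave a ratio of 54.2 (95% interval 24.7 to 149, counting error only). The 19 counts in PRODH TAC against 377 in Vector TAC gave a ratio of 0.0408 (0.0243 to 0.0647). In the fit, which Cthrc1 entered only through Vector TAC, its log2 fold change was 5.66 ± 0.40 in Vector TAC against Vector sham. It was -4.57 ± 0.32 in PRODH TAC against Vector TAC. The filter bound Cthrc1 to differ in these 2 comparisons, so no p-value is given for them. In PRODH TAC against PRODH sham it was 1.56 ± 0.74 (edgeR adjusted p = 0.0831). Without the second PRODH sham library, which holds all 4 counts of its group, PRODH sham was at 0 counts and the fitted values that use it depend on the prior count. PRODH TAC against PRODH sham then passed the threshold (edgeR adjusted p = 0.00102), and the interaction missed it (edgeR adjusted p = 0.698).

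Between the sham groups the members other than Meox1 missed the threshold. Leaving aside Cthrc1 with its 4 and 6 counts, their log2 fold changes in PRODH sham against Vector sham ran from -0.43 for Cilp to 0.60 for Fap, whose 95% interval was -0.04 to 1.23 (edgeR adjusted p = 0.369). Svep1 had 0.53 (interval 0.10 to 0.96, edgeR adjusted p = 0.195) and Dpt 0.27 (0.04 to 0.49, 0.232). Tcf21 had 0.07 (-0.49 to 0.63), Mfap5 -0.02 (-0.31 to 0.27) and Pi16 0.00 (-0.24 to 0.24).

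**Figure D2:**
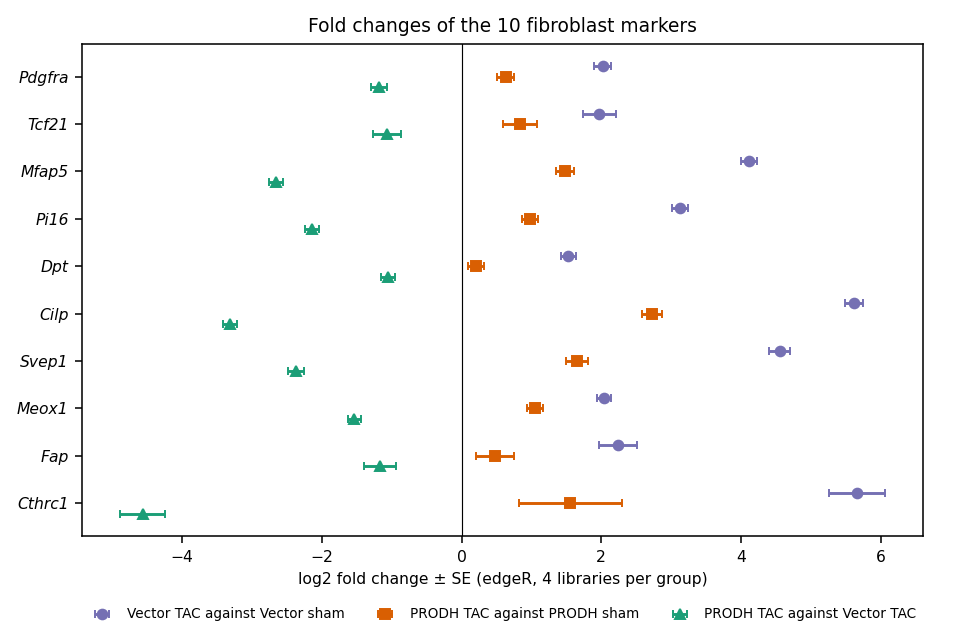
Log2 fold change of each marker with its SE in 3 comparisons. Values run from 1.53 to 5.66 in Vector TAC against Vector sham, from 0.21 to 2.72 in PRODH TAC against PRODH sham, and from -4.57 to -1.05 in PRODH TAC against Vector TAC. The ends 5.66 and -4.57 belong to Cthrc1, which passed the filter on low counts only through Vector TAC.

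The 3 members whose difference between PRODH TAC and PRODH sham missed the threshold were Dpt, Fap and Cthrc1. With libraries scaled by total count alone, these 3 passed as well (Dpt 0.59, Fap 0.85 and Cthrc1 1.91), in a fit where the median of all genes stood at 0.40 and 96.2% of called genes were higher, against 49.2% with TMM. In Vector TAC against Vector sham that scaling put the median of all genes at 0.37 and the share of called genes that were higher at 86.2%, against 53.6%. The interaction of virus and surgery was -1.39 ± 0.18 for Pdgfra (edgeR adjusted p = 7.20e-07), -1.76 ± 0.40 for Fap (0.00119), -1.14 ± 0.35 for Tcf21 (0.0159) and -0.997 ± 0.16 for Meox1 (1.95e-05). For the matrix members it was -1.32 ± 0.15 for Dpt (edgeR adjusted p = 2.45e-07), -2.64 ± 0.18 for Mfap5 (5.13e-12), -2.90 ± 0.25 for Svep1 (7.83e-10) and -2.90 ± 0.22 for Cilp (1.17e-10). For Pi16 it was -2.15 ± 0.16 (edgeR adjusted p = 5.05e-11). For Cthrc1 it was -4.10 ± 1.18. No p-value is given for it, because Cthrc1 passed the filter only through Vector TAC, a group that enters the interaction. The interaction of Tcf21 missed the threshold without the fourth PRODH sham library (-0.74, edgeR adjusted p = 0.123) and without the first Vector sham library (-0.90, 0.0536).

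Counts were also set against those of Pdgfra in the same library, a ratio that library scaling does not touch. For each 100 Pdgfra counts there were on average 153.5 Cilp counts in PRODH TAC, 671 in Vector TAC, with 36.4 in PRODH sham and 55.8 in Vector sham libraries. Mfap5 stood at 123 in PRODH TAC, 343 in Vector TAC, with 67.5 in PRODH sham and 78.6 in Vector sham. Svep1 stood at 76.7 in PRODH TAC, 172 in Vector TAC, with 37.5 in PRODH sham and 29.7 in Vector sham. These 3 are matrix genes. Pi16 stood at 204 in PRODH TAC, 394 in Vector TAC, with 160 in PRODH sham and 183 in Vector sham. Cthrc1 stood at 2.03 in PRODH TAC, 21.1 in Vector TAC, with 1.16 in PRODH sham and 1.54 in Vector sham. In these 5 genes the ratio was higher in every Vector TAC library than in every PRODH TAC, PRODH sham or Vector sham library. Among them, Cthrc1 had passed the filter on low counts only through Vector TAC.

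For the other 4, the ratios of Vector TAC and Vector sham libraries overlapped. Meox1 stood at 102 counts per 100 Pdgfra counts in PRODH TAC, 129 in Vector TAC, with 76.1 in PRODH sham and 126 in Vector sham libraries. Fap stood at 13.0 in PRODH TAC, 13.1 in Vector TAC, with 14.9 in PRODH sham and 11.3 in Vector sham. Tcf21 stood at 19.2 in PRODH TAC, 17.9 in Vector TAC, with 16.4 in PRODH sham and 17.99 in Vector sham. Neither gene separated any pair of groups by this ratio. Dpt stood at 191 in PRODH TAC, 176 in Vector TAC, with 259 in PRODH sham and 244 in Vector sham. The Meox1 ratio to Pdgfra was lower in every PRODH TAC than in every Vector TAC library. The division did not follow the labels: the identity markers Mfap5 and Pi16 were among the 5 whose ratio stood apart, and the activation markers Meox1 and Fap were not. With Dcn, a small proteoglycan of fibroblasts, in place of Pdgfra, the same 5 genes lay apart in Vector TAC against Vector sham; this denominator was chosen after seeing the data. Dpt then lay below in every Vector TAC library, at 121 counts per 1000 Dcn counts against 172 in Vector sham. Per 1000 Dcn counts, Meox1 overlapped between PRODH TAC (76.9 to 85.2) and Vector TAC (76.6 to 101), and Dpt lay above in PRODH TAC (147 to 154) against Vector TAC (119 to 123). No test was made on these ratios. The share of all genes that would stand apart by either ratio was not computed, so these counts have no background beside them.

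**Figure D3:**
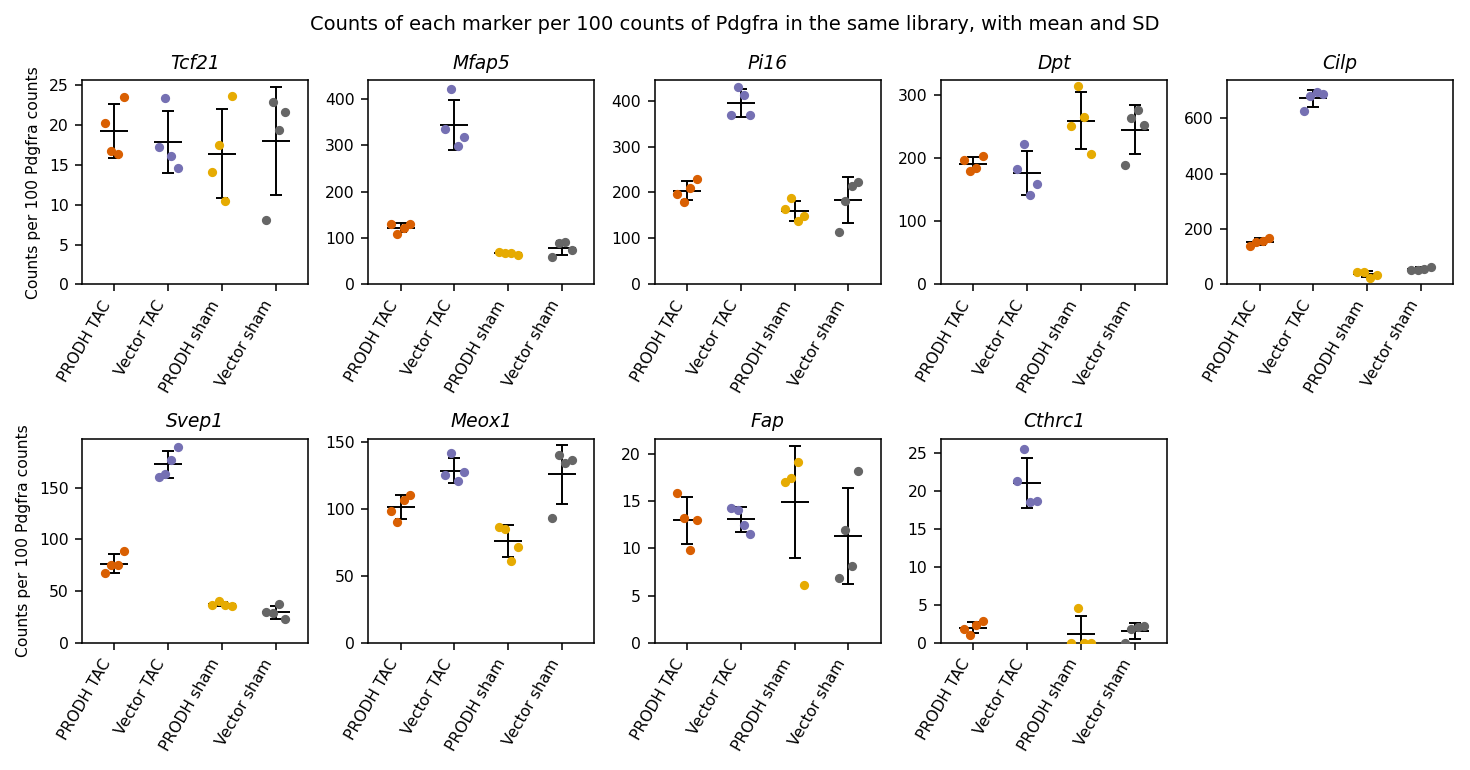
Counts of each other marker per 100 counts of Pdgfra in each library of the 4 groups. Cilp, Mfap5, Svep1, Pi16 and Cthrc1 are highest in Vector TAC in every library, while Fap and Tcf21 overlap across the groups and Dpt is lowest on average in Vector TAC.

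Levels of different genes were compared as CPM per kb of gene length. In Vector TAC the order ran from Mfap5 (50.7 CPM per kb) and Cilp (36.4) through Dpt (22.7), Pi16 (22.1) and Meox1 (12.95) to Cthrc1 (4.02), Svep1 (3.35), Pdgfra (3.29), Tcf21 (3.13) and Fap (1.06). In PRODH TAC Dpt came first on average (10.9), before Mfap5 (8.02), Pi16 (4.998), Meox1 (4.47) and Cilp (3.64), and Cthrc1 came last (0.164). In PRODH sham Dpt stood at 9.46 and Cilp at 0.551, and in Vector sham Dpt stood at 7.86 and Cilp at 0.742. Cilp thus held rank 5 in PRODH TAC, rank 2 in Vector TAC and rank 7 in both sham groups. Many neighbours in these orders overlapped between libraries: 14 of 36 neighbouring pairs were separate. In Vector TAC the pairs that overlapped were Dpt and Pi16, Cthrc1 and Svep1, Svep1 and Pdgfra, and Pdgfra and Tcf21. In PRODH TAC they were Dpt and Mfap5, Pi16 and Meox1, Meox1 and Cilp, Tcf21 and Pdgfra, and Svep1 and Fap.

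**Figure D4:**
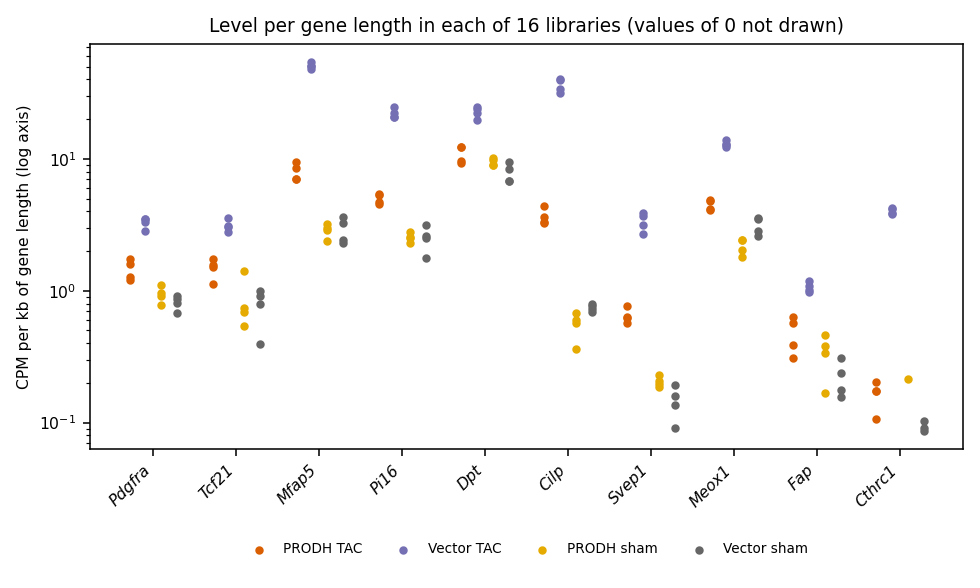
CPM per kb of gene length (log axis) of each marker in each of the 16 libraries; the 4 libraries with no Cthrc1 count are not drawn. Mfap5 averages 50.7 CPM per kb in Vector TAC libraries, while Dpt is highest on average in the other 3 groups and overlaps Mfap5 in PRODH TAC.

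Over all 16 libraries, the gene whose pattern lay nearest to each marker was found by the root mean square difference of centred log2 CPM among 8277 genes with at least 5 CPM on average. Pdgfra lay nearest to Heyl (0.160), Pi16 to Serpinf1 (0.132), Dpt to Eef1a1 (0.155) and Meox1 to Dkk3 (0.186). Mfap5 lay nearest to Col1a1 (0.217), the main chain of type I collagen, which averaged 38.5 CPM in PRODH TAC, 209.7 in Vector TAC, with 15.8 in PRODH sham and 15.3 in Vector sham libraries. Svep1 lay nearest to Col8a1 (0.286), a short-chain collagen. Tcf21 lay nearest to S100a11 (0.288), Fap to Adamts10 (0.292), Cilp to Thbs4 (0.398) and Cthrc1 to Fmod (0.582). Among the markers themselves, Dpt and Pdgfra (0.300), Mfap5 and Svep1 (0.328), and Meox1 and Pdgfra (0.348) lay closest, and Cilp and Dpt lay farthest apart (1.86).

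Relatives of the markers did not all move with them. Cilp2 is left out of the calls below. The other relatives were all higher in Vector TAC than in Vector sham (edgeR adjusted p of at most 6.62e-04). The log2 fold changes were 3.04 for Mfap2, the sister microfibril gene of Mfap5, and 1.58 for Pdgfrb, the other PDGF receptor. They were 0.91 for Dpp4, the protease most like Fap, and 0.68 for Meox2. Over all genes tested, 30.3% were called higher in this comparison and 24.6% lower in PRODH TAC than in Vector TAC. Cilp2 passed the filter on low counts only through its Vector TAC libraries. In PRODH TAC against Vector TAC, Pdgfrb (-0.57) and Mfap2 (-1.66) were lower. Meox2 was at 10.1 CPM in PRODH TAC and 9.33 CPM in Vector TAC, a log2 fold change of 0.11 (edgeR adjusted p = 0.410), beside -1.53 for Meox1. Dpp4 was at -0.45 (edgeR adjusted p = 0.0642).

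Of 5 ligands and binding partners, 4 were higher in Vector TAC than in Vector sham: Tie1, an endothelial receptor that SVEP1 binds, by 1.16, the PDGF ligands Pdgfc by 1.02 and Pdgfb by 0.95, and Itga9, the integrin chain that binds SVEP1, by 0.78. Pdgfa, the classic ligand of PDGFRα, was lower, at -0.39 (edgeR adjusted p = 0.0155), but not with total count scaling (-0.03, 0.846). Against Vector TAC, PRODH TAC libraries were lower for Pdgfc (-1.06), Pdgfb (-0.47) and Tie1 (-0.44), while Itga9 (-0.17) and Pdgfa (0.03) missed the threshold. In PRODH TAC against PRODH sham Pdgfa was lower, at -0.71 (edgeR adjusted p = 7.49e-05), while Pdgfra was higher.

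Other fibroblast genes gave the markers a setting. Beside them, 30.3% of all genes tested were called higher in Vector TAC than in Vector sham. The shares were 24.6% lower in PRODH TAC than in Vector TAC and 17.2% higher in PRODH TAC than in PRODH sham. Of 16 further genes of resident fibroblasts, 16 were higher in Vector TAC than in Vector sham (median log2 1.87), and 16 were lower in PRODH TAC than in Vector TAC (median -1.07; 15 under each of the other 3 scalings). Among them the matrix genes Lum and Islr were higher by 2.52 and 2.70, and the transporter Abca8a and the collagen-processing gene Pcolce by 1.97 and 1.91. Of 17 further activation genes, 16 were higher in Vector TAC than in Vector sham (median 3.02) and 16 lower in PRODH TAC than in Vector TAC (median -2.05). The matricellular genes Comp and Thbs4 were higher by 6.21 and 5.30, Ltbp2, which binds microfibrils, by 5.58, and Col8a1 by 4.09. Acta2, the smooth muscle actin that marks myofibroblasts and mural cells, went the other way. It averaged 71.2 ± 5.17 CPM in PRODH TAC, 52.3 ± 4.95 in Vector TAC, with 79.7 ± 6.53 in PRODH sham and 94.1 ± 6.06 in Vector sham libraries (SD, n = 4 each). Its log2 fold change was -0.85 ± 0.08 in Vector TAC against Vector sham (edgeR adjusted p = 1.66e-10) and 0.45 ± 0.08 in PRODH TAC against Vector TAC (3.08e-05). Against PRODH sham, PRODH TAC libraries were higher for 11 of the 16 resident genes (median 0.58) and 11 of the 17 activation genes (median 0.92). In PRODH sham against Vector sham, 1 of the 16 resident genes, Clec3b, was higher (0.65), and 1 of the 17 activation genes, Tnc, was lower (-1.17), beside 2.81% and 2.20% of all genes. Both were named after their values were seen, and the Tnc call was lost with total count scaling.

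Markers of other non-muscle cells were mostly higher in Vector TAC than in Vector sham too, with smaller medians than the fibroblast lists. The counts below stand beside 30.3% of all genes called higher in that comparison and 24.6% called lower in PRODH TAC against Vector TAC. The 9 endothelial genes summed to 671 to 772 CPM in PRODH TAC, 934 to 1008 in Vector TAC, with 531 to 579 in PRODH sham and 499 to 601 in Vector sham libraries. All 9 were higher in Vector TAC than in Vector sham (median log2 0.84), and all 9 were lower in PRODH TAC than in Vector TAC (median -0.46; 6 with total count scaling). The 10 myeloid genes summed to 202 to 249 CPM in PRODH TAC, 364 to 393 in Vector TAC, with 186 to 228 in PRODH sham and 123 to 198 in Vector sham libraries. All 10 were higher in Vector TAC than in Vector sham (median 1.39), and 9 were lower in PRODH TAC than in Vector TAC (median -0.77), without Fcgr1. The 7 mural genes summed to 403 to 458 CPM in PRODH TAC, 413 to 487 in Vector TAC, with 312 to 354 in PRODH sham and 310 to 331 in Vector sham libraries. Of these, 5 were higher and Abcc9 was lower (-0.59) in Vector TAC against Vector sham, and 3 were lower (2 with total count scaling or without mitochondrial genes) and Abcc9 was higher (0.55) in PRODH TAC against Vector TAC. The 6 mesothelial genes summed to 8.46 to 11.03 CPM in PRODH TAC, 14.7 to 16.4 in Vector TAC, with 8.93 to 12.5 in PRODH sham and 8.82 to 11.6 in Vector sham libraries. Of these, 4 were higher in Vector TAC than in Vector sham (6 with total count scaling) and 5 were lower in PRODH TAC than in Vector TAC. Higher in PRODH TAC than in PRODH sham were 7 of the 9 endothelial (median 0.43), 6 of the 7 mural (0.64), 2 of the 10 myeloid (0.25) and 0 of the 6 mesothelial genes (-0.27) by edgeR, where 1 mesothelial gene, Wt1, had an unadjusted p under 0.05 (0.0312). With total count scaling these were 9, 7, 10 and 1. Of all genes tested, 17.2% were called higher in this comparison with TMM, a share near that of the myeloid genes. With total count scaling 7875 genes were called higher, against 2425 with TMM. None of these endothelial, myeloid, mural or mesothelial genes was at 0 in any library.

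Cardiomyocyte genes went mostly the other way. Of all genes tested, 26.2% were called lower in Vector TAC than in Vector sham and 18.5% higher in PRODH TAC than in Vector TAC. In PRODH TAC against PRODH sham 17.8% were called lower. Of 10, 8 were lower and Mybpc3 was higher (0.22) in Vector TAC against Vector sham (median -0.50); with total count scaling 5 were lower and 2 higher (median -0.15). In PRODH TAC against Vector TAC, 5 were higher and Myl2 was lower (-0.31; median 0.24). Against PRODH sham, 5 were lower and 1 higher in PRODH TAC (median -0.25); with total count scaling 2 were lower and 5 higher (median 0.13). The 5 lymphoid genes summed to 0.214 to 1.19 CPM over all libraries, with up to 2 of them at 0, and were too low to test. The part of these other cells in the marker results was not tested.

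**Figure D5:**
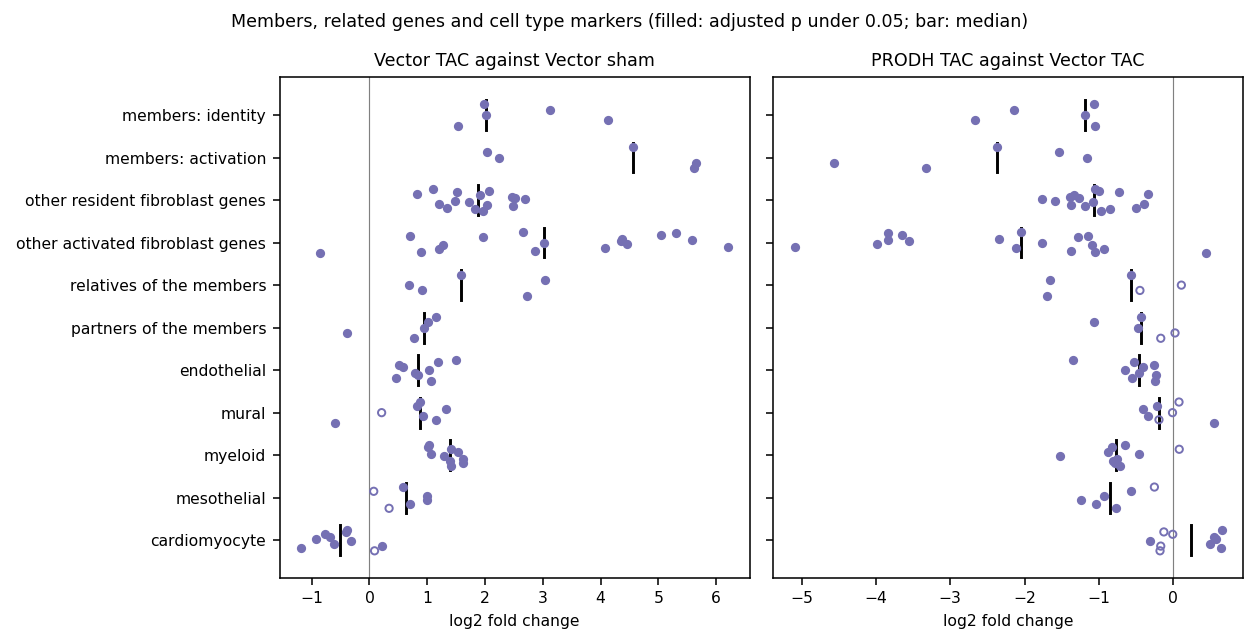
Log2 fold changes of the markers, related fibroblast genes and genes of other cell types in Vector TAC against Vector sham and in PRODH TAC against Vector TAC; filled points have an edgeR adjusted p under 0.05 and bars are medians. Medians of the further resident and activation genes were 1.87 and 3.02 in Vector TAC against Vector sham, beside 0.84 for endothelial and -0.50 for cardiomyocyte genes. Cthrc1 and Cilp2 passed the filter on low counts only through Vector TAC.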

How the data were processed

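RNA was measured in 16 libraries of isolated adult mouse cardiomyocytes, made per the labels' protocols from TRIzol-extracted, DNase-treated RNA by the SMARTER mRNA-Seq procedure. For each gene the authors deposited its length and its estimated counts, which are not all whole numbers (9538 of 57010 genes, including 2 of the 10 markers, have a fractional count). Aligner, counter, strand use, annotation and build were not given in the sources used here. Gene coordinates are therefore left out. Columns were tied to libraries by letters and a number that also stand in the bracketed code of the sample titles (all 16). No pair of libraries within a group held the same counts: the chi-square per gene was 2.87 to 30.7 over genes with at least 20 counts.

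Counts were rounded and tested with edgeR 4.0.16 (limma 3.58.1, R 4.3.3): filterByExpr (minimum count 10, minimum total 15), TMM scaling, a robust quasi-likelihood fit to all 4 groups without a block, and Benjamini-Hochberg adjustment over all 14066 genes tested, at a threshold of 0.05. Log2 fold changes used a prior count of 0.125; their SE is the unshrunk log2 fold change over the root of the F statistic, and 95% intervals are normal. CPM and CPM per kb, computed here from the deposited counts, use TMM-scaled library sizes. Ratios to Pdgfra and the orders per length are descriptions. Intervals on summed counts are exact and cover counting error only. The test was checked on simulated counts.

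Alternatives were DESeq2 1.42.0 (Wald test, and its size factors in edgeR), total count scaling, scaling without mitochondrial genes and their 16 nuclear copies, no filter, only the compared groups, the replicate number as a block, and each library left out. The scalings were also applied to the related lists, an alternative chosen after seeing the data. Named genes are all markers, up to 4 genes per related list with the smallest p in Vector TAC against Vector sham, genes that went against their list, and the nearest gene to each marker. The markers and lists were chosen with earlier results of these data known.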

Additional observations from a re-analysis of the deposited data

Results flagged for a closer look

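In 2 of 40 sets of 4 libraries (10 markers by 4 groups) an end library lay farther from the others than Dixon's 95% critical value allows; chance gives this in about 1 in 20 sets. Both were Cthrc1. It was at 0.249 CPM in the second PRODH sham library and at 0 in the other 3 of that group, and at 0 CPM in the first Vector sham library against 0.101 to 0.121 in the others, values that rest on at most 4 counts.

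The effect of TAC under PRODH minus the effect of TAC under vector passed the edgeR interaction test for 9 of 9 markers without Cthrc1. Over all genes tested, 15.8% were called with a negative and 10.9% with a positive interaction. Cthrc1 is left out of that count because it passed the filter on low counts only through Vector TAC, a group that enters the interaction. Without the second PRODH sham library its interaction missed the threshold. On the log2 scale it was -1.39 for Pdgfra, -1.14 for Tcf21, -2.64 for Mfap5, -2.15 for Pi16 and -1.32 for Dpt among the identity markers. Among the activation markers it was -2.90 for Cilp, -2.90 for Svep1, -0.997 for Meox1, -1.76 for Fap and -4.10 for Cthrc1.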

How the results depend on the processing

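Each of the 9 markers other than Cthrc1 stayed called under every alternative in Vector TAC against Vector sham and PRODH TAC against Vector TAC. Cthrc1, which the filter bound to differ in these 2 comparisons, is not counted there. No marker changed direction past the threshold. In the interaction the same 9 stayed called, except Tcf21 in 2 of 22 alternatives. Leaving out each library gave 7 to 8 markers in PRODH TAC against PRODH sham and 0 to 1 in PRODH sham against Vector sham. The count of 0 came without PRODH sham replicate 3, where 1 was called otherwise. Both of these leave-one-out counts include Cthrc1. In the same fits all genes called numbered 7371 to 8052 in Vector TAC against Vector sham and 5268 to 6198 in PRODH TAC against Vector TAC. They numbered 3927 to 5170 in PRODH TAC against PRODH sham, 514 to 800 in PRODH sham against Vector sham and 3211 to 4109 in the interaction. Total count scaling called all 10 markers in PRODH TAC against PRODH sham and 8186 genes in all, against 4925 with TMM (7875 and 2425 higher); the cause was not tested. The replicate numbers did not pair the libraries as a whole: correlations of same-numbered deviations were -0.129 to 0.168 over 24 pairs. In 8 of the 24 the same number was the best match. The 3 correlations over 0.1 all joined first libraries. They were Vector TAC with PRODH sham (0.132), Vector TAC with Vector sham (0.168) and PRODH sham with Vector sham (0.161). A shared batch of the first libraries was not tested. With the number as a block the call of each marker was as without it in every comparison. All genes called with the block were 7940 in Vector TAC against Vector sham, 4956 in PRODH TAC against PRODH sham, 6125 in PRODH TAC against Vector TAC, 723 in PRODH sham against Vector sham and 3872 in the interaction. Separate neighbours in level numbered 14 to 17 of 36. Depth limits Cthrc1 most, with 19 counts over the PRODH TAC libraries and 4 and 6 over the PRODH sham and Vector sham libraries.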
